A study of Mus musculus with 36 samples.

Results

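Fibroblast growth factor (FGF) signalling was followed through the open chromatin of 34 genes: 18 secreted ligands, 4 intracellular FGF homologues, 4 receptors and 8 feedback genes. The genes were chosen by name, as the FGF ligands, receptors and feedback genes, and were taken with 50 kb on either side of the gene body, or 150 kb for Fgf18. The measurements were peaks of ATAC-seq, an assay that sequences the fragments a transposase releases from open DNA. Chondrocytes, by the labels, of the E15.5 autopod (hand and foot) were collected from FVB/NJ mouse embryos, the 1 strain of all groups, with no treatment named. The 36 libraries formed 12 groups of 3: hand phalanges, foot phalanges, metacarpals and metatarsals, each of digits I, III and V. A library pooled right and left elements of 3 to 5 embryos of 1 litter (6 to 10 limbs), so that no value belongs to 1 embryo. The files held 1 peak list per group, made from pooled libraries, and each list is 1 measurement with no error of its own. Overlapping peaks (1 bp or more) from any of the lists were joined into regions on the mm10 build. A region counts as called in each list that has a peak over any base of it. The windows of the 34 genes held 249 of the 65543 regions of the series, and every one of the 34 genes had at least 1 region.

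Secreted FGFs bind receptor tyrosine kinases, with heparan sulphate or Klotho proteins as cofactors, and activate the RAS and MAP kinase cascade. In the limb bud, Fgf8, Fgf4, Fgf9 and Fgf17 come from the apical ectodermal ridge and Fgf10 from the mesenchyme beneath it. In the later growth plate, Fgf18 from the perichondrium acts through Fgfr3, which restrains chondrocyte proliferation, and Fgf9 promotes the growth of the proximal limb bones. Active signalling induces its own inhibitors, the Sprouty and Spred proteins and the MAP kinase phosphatase Dusp6, as well as the ETS transcription factors Etv4 and Etv5.

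The promoters of the feedback genes Spry2, Etv5 and Dusp6 carried peaks within the top 6.49% of every list, while the promoters of a few ligands were covered in only some lists or in none. The 8 sequences that follow span this range and are the 250 bases before the annotated gene start, 5′ to 3′, from RefSeq (GRCm38.p6, the same coordinates as mm10). Capitals mark CpG dinucleotides.
Spry2, chr14:105896820-105897069, minus strand: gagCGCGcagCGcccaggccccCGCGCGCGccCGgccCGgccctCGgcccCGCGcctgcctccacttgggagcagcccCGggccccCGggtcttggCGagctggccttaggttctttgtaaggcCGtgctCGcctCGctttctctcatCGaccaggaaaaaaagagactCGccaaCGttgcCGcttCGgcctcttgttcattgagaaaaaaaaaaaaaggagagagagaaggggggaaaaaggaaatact
Etv5, chr16:22439571-22439820, minus strand: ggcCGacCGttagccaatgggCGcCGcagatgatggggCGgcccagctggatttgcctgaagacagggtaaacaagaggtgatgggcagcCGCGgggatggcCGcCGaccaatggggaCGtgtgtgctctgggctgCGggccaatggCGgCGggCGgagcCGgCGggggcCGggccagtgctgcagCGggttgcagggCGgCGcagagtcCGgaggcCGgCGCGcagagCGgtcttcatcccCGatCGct
Dusp6, chr10:99262981-99263230, plus strand: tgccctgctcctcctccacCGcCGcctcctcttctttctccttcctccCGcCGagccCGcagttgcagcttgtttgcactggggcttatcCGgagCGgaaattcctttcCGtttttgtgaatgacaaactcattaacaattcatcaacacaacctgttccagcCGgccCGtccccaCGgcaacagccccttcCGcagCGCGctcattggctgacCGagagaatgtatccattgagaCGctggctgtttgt
Fgf18, chr11:33147401-33147650, minus strand: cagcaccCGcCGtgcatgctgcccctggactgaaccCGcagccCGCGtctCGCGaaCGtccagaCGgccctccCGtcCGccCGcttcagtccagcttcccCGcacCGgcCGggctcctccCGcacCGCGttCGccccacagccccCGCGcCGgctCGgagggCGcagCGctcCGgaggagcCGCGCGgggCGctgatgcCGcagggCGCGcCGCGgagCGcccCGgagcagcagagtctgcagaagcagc
Fgfr3, chr5:33721474-33721723, plus strand: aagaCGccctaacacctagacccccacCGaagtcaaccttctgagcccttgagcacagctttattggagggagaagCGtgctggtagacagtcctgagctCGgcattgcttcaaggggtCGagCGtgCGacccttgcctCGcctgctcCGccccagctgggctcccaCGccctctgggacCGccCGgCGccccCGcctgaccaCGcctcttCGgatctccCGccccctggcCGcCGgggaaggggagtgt
Fgfr2, chr7:130266809-130267058, minus strand: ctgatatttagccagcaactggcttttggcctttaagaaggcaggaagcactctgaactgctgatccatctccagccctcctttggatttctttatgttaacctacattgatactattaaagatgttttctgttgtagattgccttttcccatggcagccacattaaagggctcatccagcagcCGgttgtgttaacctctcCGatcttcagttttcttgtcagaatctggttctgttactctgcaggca
Fgf4, chr7:144861136-144861385, plus strand: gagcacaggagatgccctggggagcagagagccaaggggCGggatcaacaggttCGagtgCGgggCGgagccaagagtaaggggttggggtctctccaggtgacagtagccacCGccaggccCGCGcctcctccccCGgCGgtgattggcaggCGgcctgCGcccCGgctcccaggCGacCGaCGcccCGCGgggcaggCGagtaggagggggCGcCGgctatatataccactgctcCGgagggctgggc
Fgf6, chr6:127015292-127015541, plus strand: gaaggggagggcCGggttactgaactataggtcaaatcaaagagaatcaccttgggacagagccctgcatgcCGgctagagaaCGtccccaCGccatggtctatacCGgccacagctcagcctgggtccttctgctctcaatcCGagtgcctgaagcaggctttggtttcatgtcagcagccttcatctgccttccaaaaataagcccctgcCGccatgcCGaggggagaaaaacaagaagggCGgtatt

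Spry2, which encodes an inhibitor of receptor tyrosine kinase signalling, had a peak over its promoter that ranked within the top 0.48% to 1.62% of its list in all 12 lists, by the −log10 p-value that the authors' peak caller gave. This peak was 7078 to 17570 bp wide. The Etv5 promoter peak ranked within the top 1.0% to 4.38%, and that of Dusp6 within the top 2.0% to 6.49%. These 3 genes had the lowest medians among the members with a promoter window. Of the other feedback genes, Spred1 ranked within the top 6.8% to 14.3%, Spred2 at 10.0% to 19.7% and Spry1 at 11% to 19.2%. Genes of the other classes lay in the same range, with Fgf12 at 4.1% to 15.3% for its best ranked promoter and Fgf2 at 11% to 20%. For Fgf18 the rank was 9.3% to 26.8%, for Fgfr2 7.2% to 28.7% and for Fgfr3 17.0% to 30.2%. Ranks compare peaks within a list and are not read as a change between lists of different lengths.

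Coverage of the promoter was the common state. RefSeq promoter windows, from 250 bases before to 50 bases after the gene start, were present for 25 of the 34 genes, and 20 of the 25 had a window covered in all 12 lists. Over all genes with such a window, 61.7% were covered in all lists and 31.9% in none. Fgf6, a ligand known from skeletal muscle, was the 1 member with no promoter coverage in any list. Fgf14 was covered in 2 lists, Fgf21 and Fgf23 in 11 each and Fgf4 in 9. The Fgf4 window was covered in all 6 phalanx lists and in 3 of the 6 metapodial lists (metacarpal digit III, metatarsal digit I and metatarsal digit III), at ranks from 51.0% to 99.9%, so that some of these peaks lay at the end of their list. In tissue of many cells, a lower peak in fewer cells and less open chromatin per cell cannot be told apart. Fgf1, Fgf8, Fgf15, Fgf16, Fgf17, Fgf20, Fgfr1, Spry4 and Etv4 had no window, and each of them had 1 end of the gene body covered in all 12 lists. The other end was covered in 0 to 5 lists. The strand of these genes was not given, so the covered end need not be the promoter. For Fgf17 the lower-coordinate end was covered in 12 lists and the higher-coordinate end in 1.

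**Figure D1:**
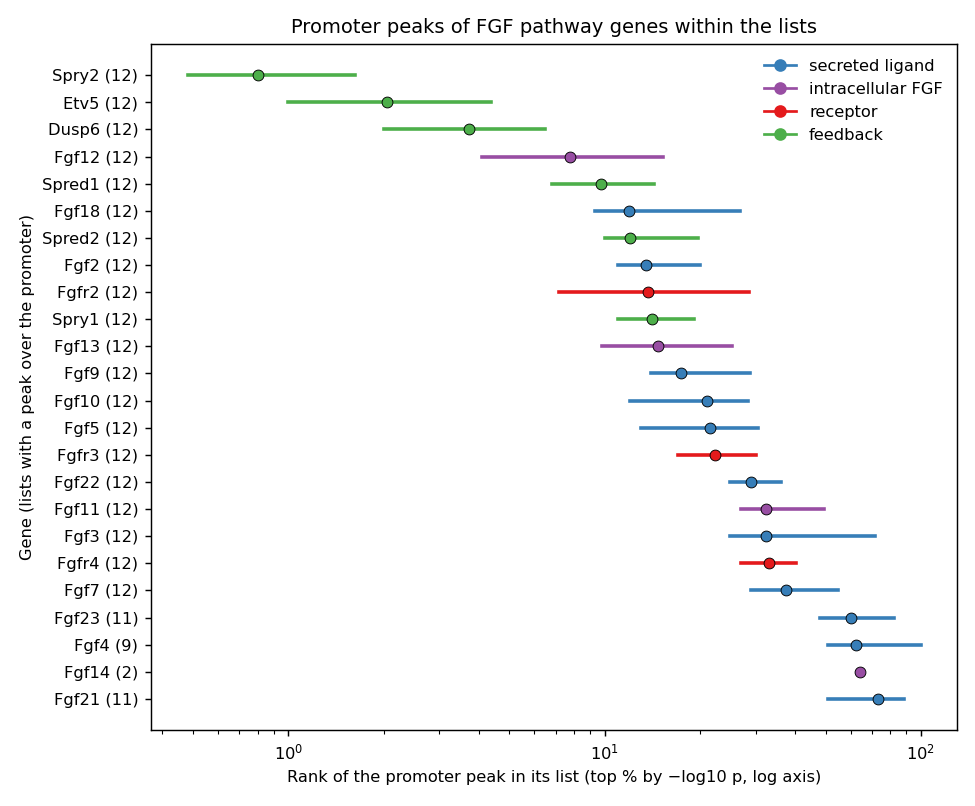
Rank of the peak over the promoter within its list, by −log10 p-value, on a log axis in top percent. Lines run from the best to the worst rank over the lists with a peak, points are medians, colours are gene classes, and the number of such lists is in brackets. Spry2, Etv5 and Dusp6 lie at the left, and Fgf4, Fgf14, Fgf21 and Fgf23 at the right.

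CpG content differed among these promoters. The ratio of observed to expected CpG was 0.95 for Spry2 (23 CpGs), 0.9 for Etv5 (27), 0.86 for Dusp6 (16) and 1.02 for Fgf18 (37). Fgfr3 had a ratio of 0.69 with 19 CpGs. Fgf4, covered in 9 lists, had a ratio of 0.68 with 21 CpGs, and Fgf6, covered in none, 0.47 with 9. Fgfr2 had the lowest ratio of the member windows covered in all 12 lists, at 0.17 with 2 CpGs. Its peak was 3290 to 10320 bp wide, and where within it the DNA was most open was not examined. Fgf11 (0.36), Fgf10 (0.4) and Fgf3 (0.41) were also low and covered in all lists. Over all promoter windows the median ratio was 0.75 for windows covered in all lists, 0.28 for windows in 1 to 11 lists and 0.16 for windows in none. The 26 member windows covered in all lists had a median of 0.83 (0.17 to 1.02). As Etv4 and Etv5 are ETS factors, the letters CCGGAAG, which include a CpG, were searched on both strands of the 250 bases. They occurred in 8.98% of all windows, in 13.6% of those covered in all lists and in none of the 33 member windows.

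Regions of the FGF genes were often shared by all skeletal elements. Of the 249 regions, 119 (47.8%) were called in all 12 lists, where the share over all regions was 35.6%, and 37 (14.9%) were called in 1 list, where it was 17.0%. The share over all regions includes regions far from genes. In the windows of 32 other genes of the pathway, given further below, 119 of 229 regions (52.0%) were in all lists, so the share is not particular to the 34 genes. By class, 18 of 34 receptor regions (52.9%) were in all lists, 17 of 35 regions of intracellular FGFs (48.6%), 54 of 112 regions of secreted ligands (48.2%) and 30 of 68 regions of feedback genes (44.1%). A window held a median of 7 regions, beside 6 over all genes with a region. The windows reach neighbouring genes, and 78 of the 249 regions lay nearest to the end of a gene that is no member. Overlapping windows shared 8 regions, among Fgf3, Fgf4 and Fgf15 on chromosome 7 and between Fgf6 and Fgf23 on chromosome 6.

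**Figure D2:**
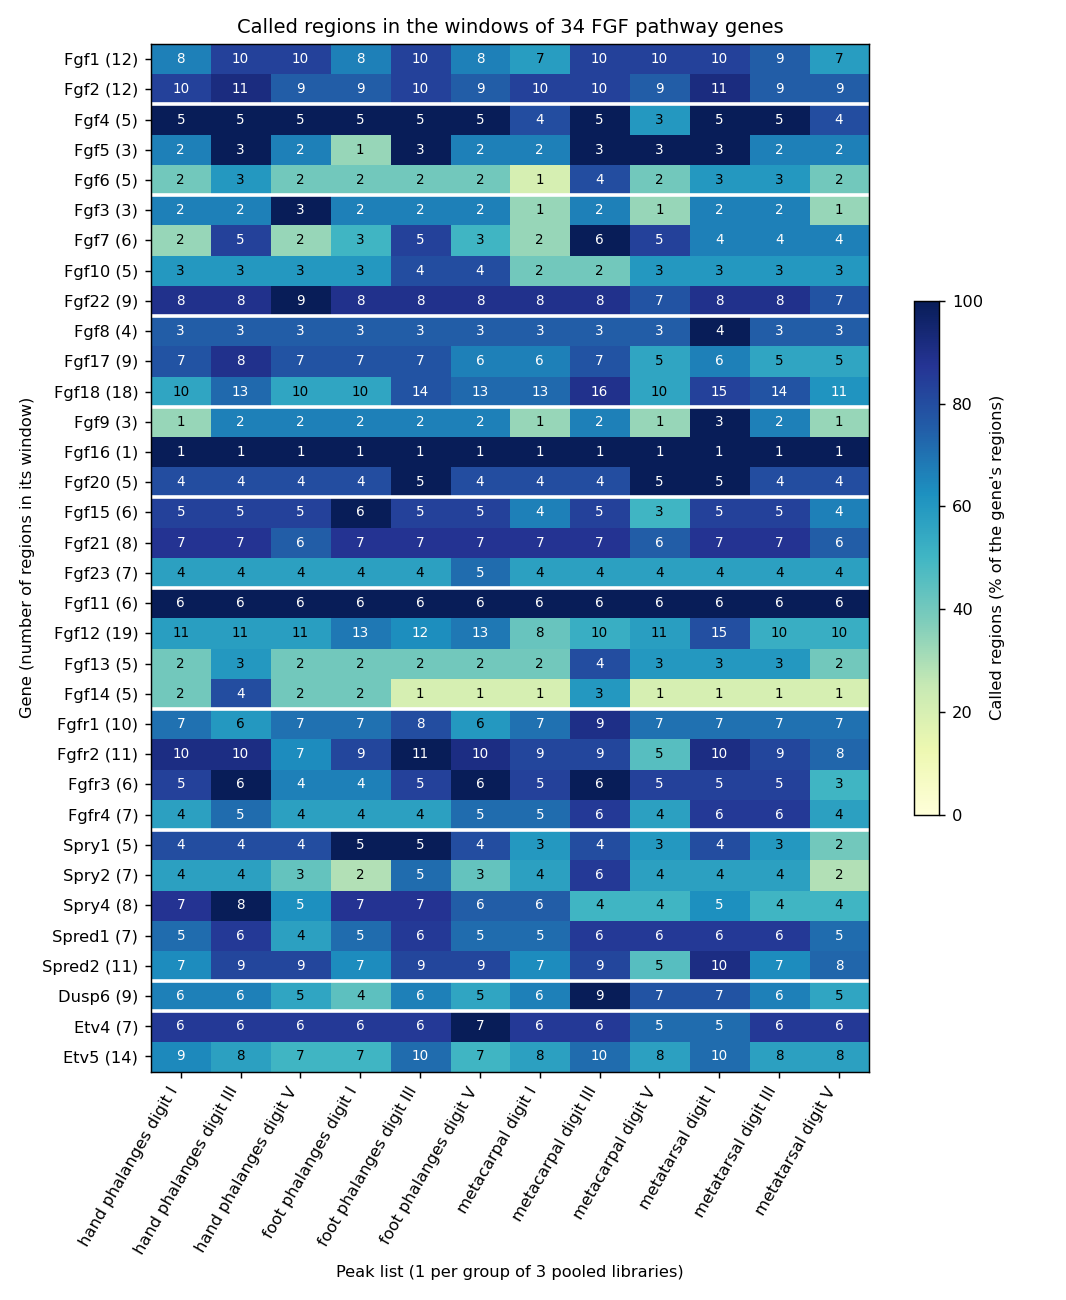
Called regions in the window of each of the 34 genes (rows, with the number of regions in brackets) in the 12 peak lists (columns). Numbers are called regions, colour is the percentage of the gene's regions that were called, and white lines part the subfamilies and roles. Fgf11 and Fgf16 have the same count in every list, and most other genes vary by a few regions.

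The lists differed in length, which bears on every count. Digit III lists had 44550.5 ± 4014.9 called regions (SD, n = 4 lists), digit I lists 37890.5 ± 4402.2 and digit V lists 35652.2 ± 1566.1. By element the numbers were 38620.3 ± 3835.6 for phalanges and 40108.5 ± 6403.8 for metapodials (n = 6 each), and by limb 39956.8 ± 4324.6 for the hindlimb and 38772.0 ± 6124.1 for the forelimb. The promoters of the chondrocyte genes Sox6, Acan, Col9a1 and Hapln1 were covered in all lists, as 4 of the 6 chondrocyte markers with a window, and that of Sox5 in none. Markers of other cell types were covered in part: Twist1, Prrx1, Kdr, Grhl3 and Tubb3 in all lists, and Tnmd, Tie1, Ptprc, Gata1, Krt5 and Krt14 in none.

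The summed regions of the 34 genes ranked by digit as the list lengths did. The sum was 188.5 ± 10.79 called regions per list for digit III, 174.0 ± 14.38 for digit I and 163.5 ± 9.68 for digit V (SD, n = 4 lists each). Per 10000 called regions of the list the same means were 42.5 ± 2.8, 46.0 ± 1.5 and 45.9 ± 1.6, so that digit III, highest in the sum, was lowest on this scale. The hindlimb had a sum of 176.0 ± 15.72 and the forelimb 174.67 ± 15.93, and the phalanges had 177.0 ± 11.85 and the metapodials 173.67 ± 18.84 (n = 6 each). These ranges overlapped (153 to 195 and 160 to 198 by limb, 165 to 192 and 153 to 198 by element).

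Between hindlimb and forelimb, none of the 34 genes passed the test. Called regions per list were compared by a two-sided exact permutation test, with labels exchanged only between lists of the same element and digit, and a gene was called at an unadjusted exact p of at most 0.05. Over all 19297 protein-coding genes with a region, 0.513% had more and 0.0933% fewer called regions in the hindlimb. No gene passed after Benjamini-Hochberg adjustment over all of them, but the design largely fixed this outcome. The smallest exact p for limb or element is 0.0312, so a pass would need most genes to reach it. Fgf10, the mesenchymal ligand of limb outgrowth, had 3, 4 and 4 called regions in foot phalanges of digits I, III and V, 3 in each metatarsal list, 3 in each hand phalanx list and 2, 2 and 3 in metacarpals. The hindlimb mean was 3.33 ± 0.52 and the forelimb mean 2.67 ± 0.52 (exact permutation p = 0.125, n = 6 lists each). One region inside Fgf12, which encodes a modulator of sodium channels, lay at chr16:28287712-28291242 and was called in all 6 hindlimb lists and in 1 forelimb list, hand phalanges of digit I.

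Between phalanges and metapodials, Spry4 and Fgf17 had more called regions in the phalanges and no member had fewer. Over all genes 0.829% had more and 0.948% fewer in the phalanges. Neither gene passed adjustment over all genes (adjusted exact permutation p = 0.861 each), which the same limit of the design made near certain. Spry4, a Sprouty inhibitor of receptor signalling at chr18:38586247-38601347, had 7, 7 and 6 called regions in foot phalanges of digits I, III and V, 7, 8 and 5 in hand phalanges, 6, 4 and 4 in metacarpals and 5, 4 and 4 in metatarsals. The 2 elements overlapped at 5 and 6 regions, but the phalanx list exceeded the metapodial list of the same limb and digit in 6 of 6 pairs. Phalanges had 6.67 ± 1.03 called regions for Spry4 and metapodials 4.5 ± 0.84 (SD, n = 6 lists each; exact permutation p = 0.0312, the smallest this design allows).

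Most of the Spry4 difference came from 3 regions outside the gene, of 8 in the window. The region chr18:38572055-38575605, 10.6 kb from the gene body, was called in 5 of 6 phalanx lists and in 1 of 6 metapodial lists. The region chr18:38609131-38611378, 7.8 kb beyond the other end, was called in all 6 phalanx lists and in 2 metapodial lists, both of digit I. The third, chr18:38625329-38626852, was called in 4 phalanx lists, those of digits I and III, and in no metapodial list. Both of the regions beyond that end lay nearer to Arhgap26 than to Spry4. The gene body itself was reached by 2 regions called in all 12 lists.

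**Figure D3:**
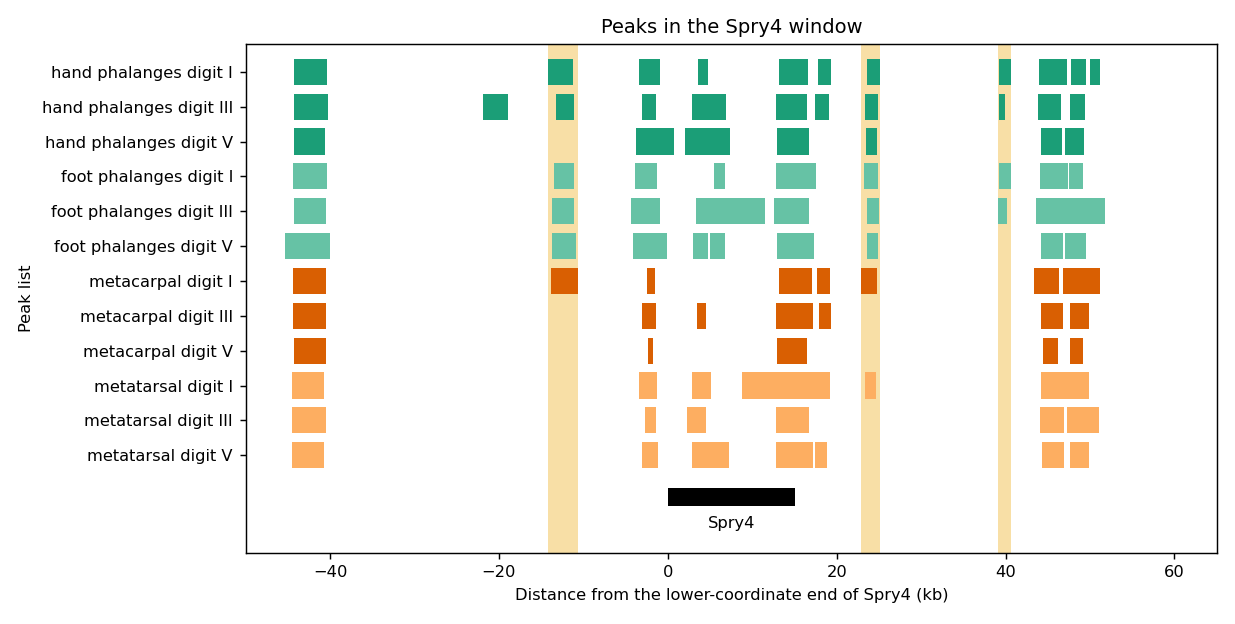
Peaks in the Spry4 window in the 12 lists (rows) by distance from the lower-coordinate end of the gene in kb, with the gene body as a black bar. Shaded columns are the regions called in at least 4 more phalanx than metapodial lists. Peaks at the gene are present in every list, and those in the shaded columns mostly in the phalanx lists.

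Fgf17, a ligand of the FGF8 subfamily at chr14:70636203-70642268, had 7, 7 and 6 called regions in foot phalanges, 7, 8 and 7 in hand phalanges, 6, 7 and 5 in metacarpals and 6, 5 and 5 in metatarsals. The phalanx list was again the higher in 6 of 6 pairs, with means of 7.0 ± 0.63 and 5.67 ± 0.82 (exact permutation p = 0.0312, n = 6 lists each). The window is dense in genes, and 7 of its 9 regions lay nearest to Fam160b2, Dmtn or Npm2. The regions that differed were chr14:70603105-70606537 near Dmtn and chr14:70644314-70649027 near Npm2, each called in 5 phalanx and 2 metapodial lists, while 2 more regions were called in 1 hand phalanx list each. Spry1, a second Sprouty gene, had 4.33 ± 0.52 called regions in phalanges and 3.17 ± 0.75 in metapodials and did not pass (exact permutation p = 0.0625).

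Markers of other cell types were set beside these values. Over the 4 skeletal muscle markers, the summed called regions were 13.67 ± 2.07 in phalanges (10 to 16) and 10.33 ± 2.25 in metapodials (8 to 14). As for Spry4 and Fgf17, the phalanx list was the higher in every pair of the same limb and digit. In digits I, III and V the muscle sums were 16, 15 and 14 in foot phalanges and 14, 11 and 10 in metatarsals. They were 10, 13 and 14 in hand phalanges and 8, 11 and 8 in metacarpals. The epidermal markers gave 9.0 ± 1.26 (7 to 10) and 7.67 ± 1.21 (6 to 9), the nerve and Schwann cell markers between 18 and 21 and between 14 and 20, and the endothelial markers 11.33 ± 1.86 (9 to 14) and 13.67 ± 1.97 (11 to 17). Chondrocyte markers had 62.17 ± 10.4 (54 to 81) and 68.33 ± 12.63 (50 to 88). The remaining sets differed little. Perichondrium and osteoblast markers had 33.83 ± 2.64 in phalanges and 32.83 ± 4.36 in metapodials, blood markers 14.33 ± 1.37 and 14.17 ± 2.64, and tendon markers 7.17 ± 1.17 and 7.67 ± 2.16. Of the single markers, Cdh5 of the endothelium alone passed between elements, with fewer called regions in phalanges, where 0.948% of all genes had fewer. The part of these cell types in the Spry4 and Fgf17 values was not tested. In lists of equal length Spry4 differed by 1.83 and Fgf17 by 0.83 regions, and neither passed (exact permutation p = 0.0625 each). With 10 kb flanks both differences were 0.67 regions (exact permutation p = 0.125). At equal length Fgf10 and Fgf12 were called in their place, and per 10000 called regions 6 members were higher in phalanges, Spry4 and Fgf17 among them, and 2 lower. Neither setting was run over all genes, so no share stands beside these counts.

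One region separated an element completely. It lay at chr11:32998710-33000661, 116.3 kb beyond the downstream end of Fgf18 (chr11:33116970-33147400, minus strand), and was called in all 6 metapodial lists and in no phalanx list. Over all regions, 0.0915% were called in this way and 0.418% separated any of the 7 classes of limb, element and digit. The wider window of Fgf18 was set with this region known, so the count of 1 is a description. Its neighbours did not share the pattern: a region 101.9 kb from the gene body was called in 11 lists and one 64.4 kb away in all 12. A smaller region at chr11:33085038-33086464, 30.5 kb from the gene body, was called in 3 metapodial lists (metacarpal digits I and III, metatarsal digit I) and in no phalanx list. Regions of the window that lay wholly upstream of Fgf18 were nearest to Npm1, Tlx3 or Ranbp17.

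The whole Fgf18 window had 18 regions, beside a median of 13 for genes with windows of that width, and 6 of them, including the promoter and 1 region inside the gene, were called in all lists. Its called regions numbered 10, 14 and 13 in foot phalanges of digits I, III and V, 10, 13 and 10 in hand phalanges, 13, 16 and 10 in metacarpals and 15, 14 and 11 in metatarsals. The elements overlapped, at 11.67 ± 1.86 in phalanges and 13.17 ± 2.32 in metapodials (exact permutation p = 0.25, n = 6 lists each). Digit III had 14.25 ± 1.26 (n = 4) and the other digits 11.5 ± 1.93 (n = 8; exact permutation p = 0.0617).

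**Figure D4:**
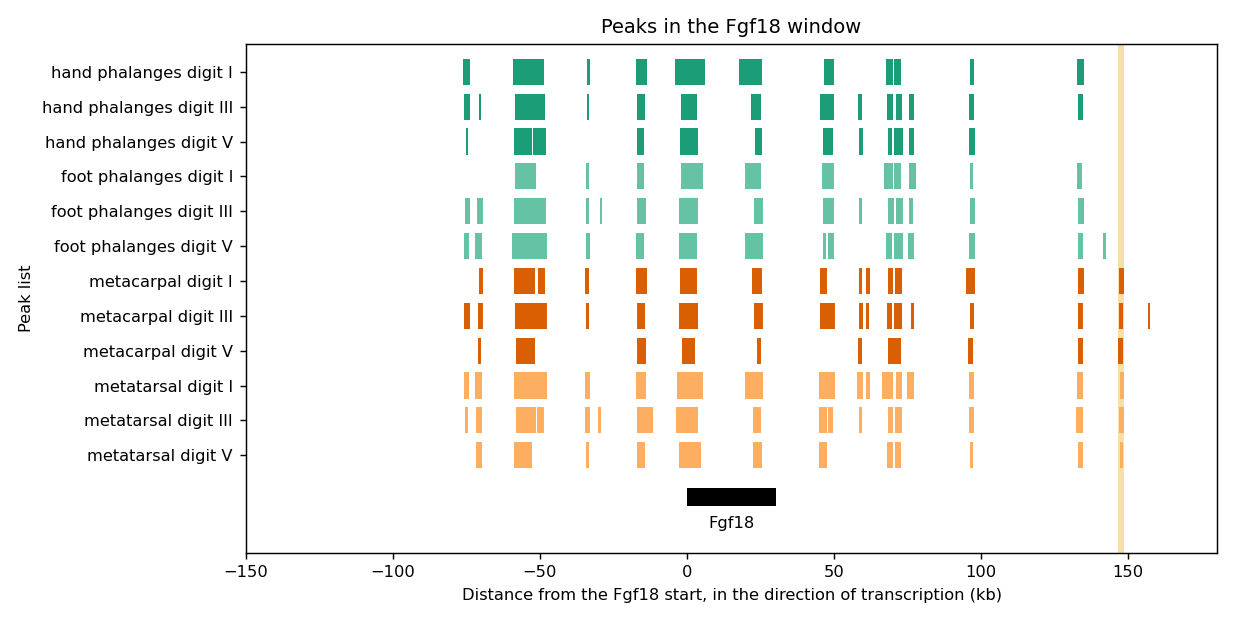
Peaks in the Fgf18 window in the 12 lists (rows) by distance from the gene start in the direction of transcription, in kb, with the gene body as a black bar. The shaded column marks the region called in all 6 metapodial lists and in no phalanx list, and the promoter peak at 0 is present in every list.

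Regions were also taken to follow a class with at most 1 list missing and at most 1 list too many. By this relaxed rule, which was chosen after seeing the data, 12 of the 249 regions (4.82%) followed a class, where 5.9% of all regions did. There were 4 for phalanges, 2 for metapodials (the separating Fgf18 region among them), 1 for hindlimb and 5 for digit III. The background shares were 1.05%, 1.16%, 0.861% and 2.28%, in that order. Etv5, an ETS factor induced by FGF, had a region of each kind in its window: chr16:22465247-22467880 was called in 5 metapodial lists and 1 phalanx list, and chr16:22477136-22479209 in 5 phalanx lists and 1 metapodial list. Both lay nearer to Dgkg than to Etv5. Of the other 3 phalanx regions, 1 was the Spry4 region 10.6 kb from the gene body, called in 5 phalanx lists and 1 metapodial list. The others were in Fgf2 (chr3:37400754-37402828, inside the gene and nearest to the end of Nudt6) and in Fgf12 (chr16:28733617-28736625), each called in all 6 phalanx lists and in metatarsal digit I.

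Between digits, 3 of the 34 genes passed the unadjusted test. In digit I no member passed, where 0.969% of all genes had more and 0.591% fewer called regions than in the other digits. In digit III 1 of 34 had more, where 10.8% of all genes did, and none had fewer, where 0.0259% did. In digit V 2 of 34 had fewer, where 3.34% of all genes did, and none more, where 0.0518% did. The median difference for digit III was 0.56 regions over the 34 genes and 0.25 over all genes, and for digit V it was −0.5 and −0.25. In lists of equal length none of the 3 calls for digits remained: Fgf7 differed by 1.38 regions (exact permutation p = 0.123), Fgfr2 by −0.38 (p = 0.877) and Fgf21 by −1.0 (p = 0.123). Each of these calls was also lost without any 1 of 9 lists, while the difference ranged from 1.54 to 2.21 regions for Fgf7, −2.96 to −1.29 for Fgfr2 and −1.0 to −0.67 for Fgf21. Fewer labellings remain without a list, which alone can raise p above 0.05. Without hand phalanges of digit I, Fgf21 kept its difference of −0.75 at exact permutation p = 0.0556. Per 10000 called regions none of the 3 calls remained either: Fgf7 (0.27) and Fgfr2 (−0.27) kept their direction, and Fgf21 turned to 0.03. Other members were called on this scale. In digit III 8 were lower and 0 higher, among them Fgf11 and Fgf16, whose counts are the same in every list. In digit V 2 (Fgf10 and Fgf23) were higher and 0 lower. The share over all genes on this scale was not computed.

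Fgf7, a mesenchymal ligand of epithelial receptors at chr2:126034658-126091185, was the 1 gene called for digit III. Its called regions in digits I, III and V were 3, 5 and 3 in foot phalanges, 2, 5 and 2 in hand phalanges, 2, 6 and 5 in metacarpals and 4, 4 and 4 in metatarsals. Digit III had 5.0 ± 0.82 (n = 4) and the others 3.12 ± 1.13 (n = 8; exact permutation p = 0.037, adjusted p = 0.395). The metatarsals showed no difference. A region 5.1 kb outside the gene, chr2:126027738-126029529, was called in digit III of foot phalanges, hand phalanges and metacarpals and in metacarpal digit V.

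Fgfr2, the receptor known from the perichondrium and osteoblasts, had fewer called regions in digit V. At chr7:130162451-130266808 it had 9, 11 and 10 called regions in foot phalanges of digits I, III and V, 10, 10 and 7 in hand phalanges, 9, 9 and 5 in metacarpals and 10, 9 and 8 in metatarsals. Digit V was the lowest digit in hand phalanges, metacarpals and metatarsals and not in foot phalanges, at 7.5 ± 2.08 (n = 4) and 9.62 ± 0.74 (n = 8; exact permutation p = 0.037, adjusted p = 1.0). All 11 regions lay nearest to Fgfr2 itself. Fgf21, an endocrine ligand of metabolism, was the second gene, with 6 called regions in digit V of hand phalanges, metacarpals and metatarsals and 7 in each of the other 9 lists (6.25 ± 0.5 and 7.0 ± 0.0, exact permutation p = 0.037, adjusted p = 1.0). Of its 8 regions, 7 lay nearest to other genes, and the lists with 6 did not all lack the same region.

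**Figure D5:**
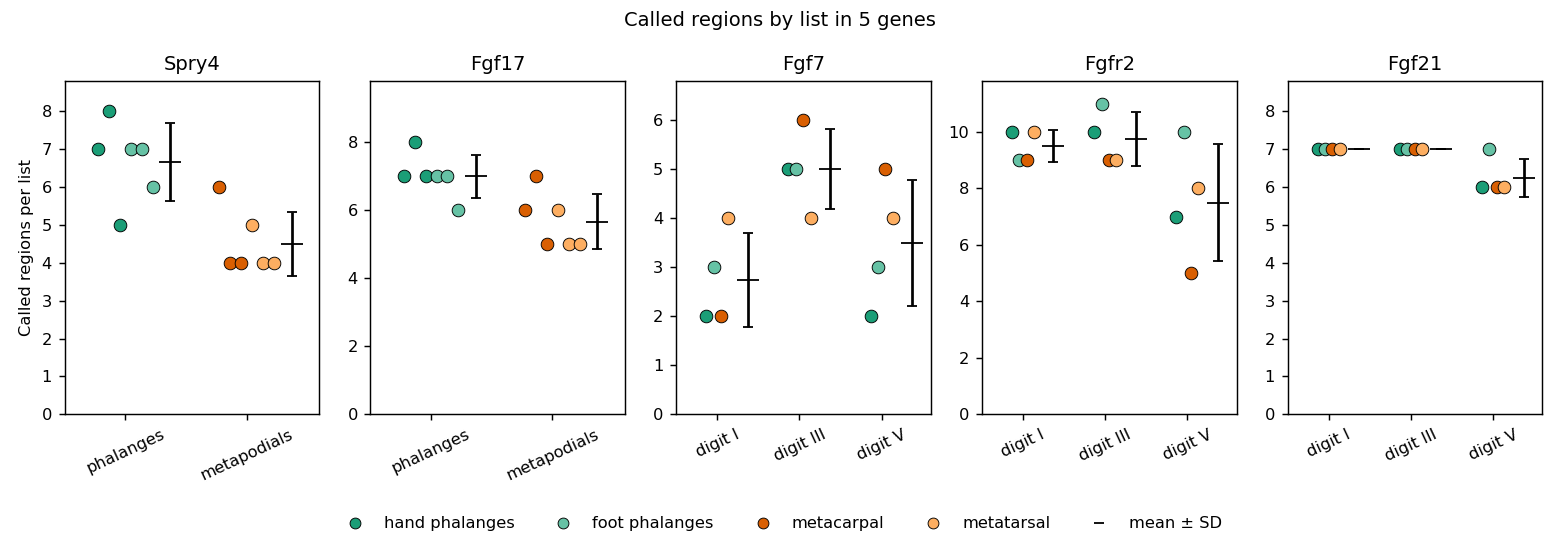
Called regions per list in the 5 genes that passed the unadjusted exact test for element (Spry4, Fgf17) or digit (Fgf7, Fgfr2, Fgf21). Points are lists, coloured by limb and element, and bars are mean ± SD. Spry4 and Fgf17 lie higher in phalanges with some overlap, and the spread of Fgfr2 in digit V runs from 5 to 10.

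The remaining receptors varied by a few regions. Fgfr1, which mediates FGF signals in limb mesenchyme and hypertrophic chondrocytes, had 7, 8 and 6 called regions in foot phalanges of digits I, III and V, 7, 6 and 7 in hand phalanges, 7, 9 and 7 in metacarpals and 7 in each metatarsal list. Fgfr3 had 4, 5 and 6 in foot phalanges, 5, 6 and 4 in hand phalanges, 5, 6 and 5 in metacarpals and 5, 5 and 3 in metatarsals. Digit III had 5.5 ± 0.58 for Fgfr3 and the other digits 4.62 ± 0.92 (exact permutation p = 0.21, n = 4 and 8 lists). Fgfr4 had between 4 and 6 called regions.

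Ligands of the limb ridge varied by few regions. Fgf8 had 3 called regions in 11 lists and 4 in metatarsal digit I, and the region over the gene was in all 12. Fgf9 had 2 called regions in each foot phalanx list, 1, 2 and 2 in hand phalanges, 1, 2 and 1 in metacarpals and 3, 2 and 1 in metatarsals, with the gene start covered in all 12 lists. Fgf4 had 5 called regions in every phalanx list and 3 to 5 in the metapodial lists (5.0 ± 0.0 and 4.33 ± 0.82, exact permutation p = 0.25, n = 6 lists each). The other secreted ligands ranged over 7 to 10 called regions for Fgf1, 9 to 11 for Fgf2, 1 to 3 for Fgf3 and Fgf5, 1 to 4 for Fgf6, 7 to 9 for Fgf22 and 4 to 5 for Fgf20. Fgf16 had 1 in every list. The endocrine ligands Fgf15 and Fgf23 had 3 to 6 and 4 to 5. The intracellular FGFs, which bind sodium channels and do not act as classical ligands, ranged from 6 in every list for Fgf11 to 8 to 15 for Fgf12, with 2 to 4 for Fgf13 and 1 to 4 for Fgf14.

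Among the feedback genes, Spry2 had 2, 5 and 3 called regions in foot phalanges of digits I, III and V, 4, 4 and 3 in hand phalanges, 4, 6 and 4 in metacarpals and 4, 4 and 2 in metatarsals. Digit III had 4.75 ± 0.96 and the others 3.25 ± 0.89 (exact permutation p = 0.0741, n = 4 and 8 lists). A Spry2 region at chr14:105873566-105876105, 15.8 kb from the gene body, was called in the 3 metacarpal lists and in no other list. This limb and element combination is no class of the tests. Dusp6 had 4, 6 and 5 in foot phalanges, 6, 6 and 5 in hand phalanges, 6, 9 and 7 in metacarpals and 7, 6 and 5 in metatarsals. Phalanges had 5.33 ± 0.82 for Dusp6 and metapodials 6.67 ± 1.37 (exact permutation p = 0.25, n = 6 lists each). Etv5 had 7, 10 and 7 in foot phalanges, 9, 8 and 7 in hand phalanges, 8, 10 and 8 in metacarpals and 10, 8 and 8 in metatarsals. Etv4 ranged from 5 to 7, Spred1 from 4 to 6 and Spred2 from 5 to 10.

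Of 32 other genes of the pathway (coreceptors, adaptors, kinases of the cascade and further inhibitors), none passed for limb, element, digit I or digit V. For digit III, 5 had more called regions and none fewer, beside the 10.8% of all genes. Fgfrl1, a decoy receptor, had 8.0 ± 0.82 in digit III and 6.88 ± 0.64 in the others (exact permutation p = 0.0123, n = 4 and 8 lists). Plcg1, a phospholipase bound by FGF receptors, had 2.25 ± 0.5 and 1.38 ± 0.52 (exact permutation p = 0.0247). Dusp5, a phosphatase of nuclear MAP kinase, had 6.25 ± 1.26 and 3.75 ± 1.28, and Kl, the coreceptor of endocrine FGFs, 4.25 ± 0.5 and 2.25 ± 1.04 (exact permutation p = 0.037 each). Flrt2 was the fifth, named here after its values were seen, with 3.5 ± 1.29 and 2.0 ± 0.53 (exact permutation p = 0.037). The chondrocyte markers gave 4 of 8 genes with more called regions in digit III (Sox6, Col2a1, Acan and Col9a1) and 2 of 8 with fewer in digit V (Sox6 and Acan), beside 3.34% of all genes. Of the markers of other cell types, Runx2 (1 of 5 in its set), Tnmd (1 of 3), Cdh5 (1 of 4) and Ptprc (1 of 4) had more in digit III. No marker of muscle, epidermis or nerve did, and the share of all genes was 10.8%. In digit I Sp7 had more and Cdh5 fewer, where 0.969% and 0.591% of all genes did.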

How the data were processed

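ATAC-seq was done on 36 libraries in 12 groups of 3. Tools named in the submitters' processing notes, with no role given, are MACS3, Picard 2.9.0 and Bowtie2 2.3.4.1, and the build is mm10; trimming, filtering and read shifting are not given in the sources used here. The peak names say that libraries were pooled, and the file names state a selection by irreproducible discovery rate. For each peak the authors deposited a score, the summit position, a fold enrichment (ratio) and a −log10 p-value, among others. These values were used to rank peaks within a list or to shorten it. Lists ended at a −log10 p-value between 23.0 and 49.6, so a region missing from a list may lie below that list's threshold. The aim, per the labels, was 40 M reads or more per library. The depth behind each list is not known, and p-values measure the spread between lists.

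Gene positions and promoter windows came from RefSeq GRCm38.p6 tables. Promoter windows were covered in all lists in 60.3% of cases, and in 4.1% after a shift by 100 kb. The exact test exchanged labels within strata (64 labellings for limb or element, 81 for a digit), with Benjamini-Hochberg adjustment over all 19297 genes, and was tested on simulated data (Python 3.11.15, numpy 2.4.6, pandas 2.3.3). Genes given with every list were those called, those with a separating region and 11 chosen by role (Fgf18, Fgf9, Fgf8, Fgf10, Fgfr1, Fgfr2, Fgfr3, Spry2, Spry4, Dusp6 and Etv5). Up to 4 other pathway genes were named per comparison, by smallest p and then largest difference. The members, the gene lists and the alternatives were chosen with earlier results of these data known. The alternatives are given in the closing section.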

Additional observations from a re-analysis of the deposited data

Results flagged for a closer look

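A list far from the other lists of its class was found 18 times in 97 classes of 4 or 6 lists, over the genes given with every list. Chance flags about 1 in 20 groups of continuous values, and counts with many ties are flagged more easily, since 1 list that differs by 1 region from equal neighbours is enough. Limb effects were also compared between elements, and element effects between limbs. Only a reversal was looked for, with every digit going 1 way in 1 group and the opposite way in the other, and none was found. Effects that differ between digits, or that are present in 1 group and absent in the other, were not searched.

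For Fgf21, metatarsal digit V was low among the hindlimb lists, with 6 called regions and 7 in the next list, and hand phalanges of digit V were low among the phalanx lists (6 and 7). Within digit V, foot phalanges were high for Fgf21 (7 and 6). Fgf9 was low in hand phalanges of digit I among the phalanx lists (1 and 2). Fgf8 was high in metatarsal digit I among the hindlimb, digit I and metapodial lists alike (4 and 3), from 1 region, 18.3 kb from the gene body. Fgf10 was low in metacarpal digit I among the digit I lists (2 and 3) and high in foot phalanges among the digit V lists (4 and 3).

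Of the receptors, Fgfr1 was low in foot phalanges among the digit V lists (6 and 7) and high in metacarpal digit III among the forelimb and the metapodial lists (9 and 7). Fgfr3 was low in foot phalanges among the digit I lists (4 and 5) and in metatarsal digit V among the metapodial lists (3 and 5). Of the feedback genes, Spry2 was low in foot phalanges among the digit I lists (2 and 4) and high in metacarpal digit III among the forelimb lists (6 and 4). Dusp6 was high in metacarpal digit III among the digit III lists (9 and 6) and in metacarpal digit V among the digit V lists (7 and 5). Metacarpal digit III was the longest list, with 50089 called regions, and its part in these values was not tested.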

How the results depend on the processing

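No paired analysis was possible because each list pools the 3 replicates of its group, so replicate numbers have no values of their own. The tests pair lists only by limb, element and digit. Of the counts and sums over members under alternatives, 153 were of a size like that reported and 49 were not. A summed difference counted as like when it moved by less than the SD between lists. That SD was larger than the reported differences by limb (1.33), element (3.33) and digit I (−2.0). These differences could therefore change sign and still count as like, and the 153 does not measure their stability. A like count can hold different genes: at equal list length the 2 calls for element were Fgf10 and Fgf12, per 10000 called regions the 2 for digit V were Fgf10 and Fgf23 (higher), and without hand phalanges of digit I the 1 for digit III was Spry2.

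Apart from the relaxed rule, the alternatives of this section were run for the members alone. No share over all genes or regions stands beside these counts, so they are not read as results about the members. With lists cut to equal length (36194 peaks), no member was called for digit III (0 genes) or digit V (0). For digit I 3 were called, Fgf21 and Spry4 with more and Fgf7 with fewer called regions. The separating regions then numbered 2, and the summed difference of digit III was 1.25 regions beside 19.75. Spry4 and Fgf17 then differed between elements by 1.83 and 0.83 regions (exact permutation p = 0.0625 each). With the more significant 50% of each list, 0 members were called for element, 2 for digit III and 0 for digit V, with 3 separating regions. With 50% of a region covered, 1 was called for digit I, 2 for digit III and 0 for digit V. In 500-bp windows round summits, 1 was called for element (Spry4) and 3 for digit III. With 10 kb flanks the calls were 0 for element, 2 for digit III and 0 for digit V, with 0 separating regions, and with 100 kb 2 for digit III and 2 separating regions. Assigned to the nearest gene end, 1 gene was called for element (Fgf10, and neither Spry4 nor Fgf17), 5 for digit III and 1 for digit V (Fgfr2, −4.0 regions). Per 10000 called regions, the calls were 2 for limb (Fgf10 higher and Dusp6 lower in the hindlimb), 8 for element (6 higher and 2 lower in phalanges), 1 for digit I and 8 for digit III, all 8 lower and including Fgf11 and Fgf16, whose counts are constant. On that scale the calls of Fgf7 (0.27, exact permutation p = 0.185) and Fgfr2 (−0.27, exact permutation p = 0.284) were lost, and Fgf21 in digit V reversed to 0.03 (exact permutation p = 0.84). With 50 kb for Fgf18, 0 regions separated a class. With the reported windows, 12 regions met the relaxed rule, added after seeing the data.

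With each list left out in turn, members called ranged from 0 to 1 for digit I, 0 to 4 for digit III and 0 to 3 for digit V, and separating regions from 1 to 4 (2 without hand phalanges of digit I, 4 without metatarsal digit I). The summed difference ranged from −2.47 to 6.0 for limb, −0.8 to 8.2 for element, −9.0 to 1.67 for digit I, 16.58 to 24.92 for digit III and −21.92 to −14.25 for digit V. The calls of Fgf7, Fgfr2 and Fgf21 were each lost without any 1 of 9 lists, with differences of 1.54 to 2.21, −2.96 to −1.29 and −1.0 to −0.67 regions. With fewer labellings p can rise at an unchanged difference, so these losses do not by themselves show that a call rests on 1 list. For limb and element the smallest exact p with a list left out is 0.0625, and no call is possible: Spry4 differed by 1.9 to 2.5 regions and Fgf17 by 1.13 to 1.6. The depth behind each list is not known.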
